A study of Homo sapiens with 24 samples.

Results

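The core circadian clock genes are 10 genes chosen by symbol: PER1, PER2, PER3, CRY1, CRY2, ARNTL, CLOCK, NR1D1, NR1D2 and DBP. They are 10 of the 23946 genes listed in any table of the series, and no threshold on a measured value was used to choose them, although earlier results of these data were known. All 10 were listed and tested in both experiments described here.

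The circadian clock of a mammalian cell is a transcriptional loop. CLOCK and ARNTL (also called BMAL1) form a heterodimer that binds E-box DNA elements and drives transcription of the PER and CRY genes, whose protein products return to the nucleus and repress that heterodimer. A second loop runs through NR1D1 and NR1D2 (REV-ERBα and REV-ERBβ), nuclear receptors that repress ARNTL, and other nuclear receptors activate it. DBP is a PAR bZIP transcription factor that is driven by the same heterodimer and acts on D-box elements of output genes. In the prostate, as in other peripheral tissues, these genes are expressed outside the central pacemaker, and PER1 is a known target of steroid hormone receptors.

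LNCaP, an androgen-responsive human prostate adenocarcinoma cell line with luminal features, was used throughout, and cells were kept in phenol red-free medium with charcoal-stripped (steroid-depleted) serum for 3 days before treatment. In the ligand experiment cells received vehicle or a ligand. The androgen dihydrotestosterone (DHT) was given at 10 nM and the antiandrogen enzalutamide (MDV) at 10 μM, each for 4 h or 24 h. There were 2 libraries per condition, those of vehicle after 3 of its 4 columns were summed. No time is given for vehicle. In the siRNA experiment cells were transfected with a non-targeting pool (siControl) or a pool against the pioneer factor GATA2 (siGATA2), and 72 h later received vehicle or 25 μM MDV for 24 h, with 3 libraries per condition. Because the vehicle libraries carry no harvest time, the elapsed hours and the ligand cannot be told apart in a comparison with vehicle. DHT and MDV at the same time were also compared directly. By the prefix of the column names, the ligand libraries fall into 3 sets, each with at least 1 vehicle column, and what a set stands for is not given in the sources used here. Both 4 h DHT libraries were in the first set, both 4 h MDV libraries in the second and both 24 h MDV libraries in the third, while the 24 h DHT libraries were split between the second and the third. The ligands therefore shared no set at 4 h and, at 24 h, only the set that held both 24 h MDV libraries. A difference between sets enters these comparisons. The fit with the set as a term takes the 4 vehicle columns as separate samples, although 3 of them are summed elsewhere. It estimates the sets from these columns and from the split 24 h DHT libraries. If the 3 columns are reads of 1 library, a difference in culture or harvest between sets can remain in that fit. Its p-values would then treat 1 library as 3. The labels call the replicates biological but name no separate cultures, so the p-values measure the spread between these libraries.

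Total estimated counts ranged from 38894876 to 59985287 per ligand library. The depth of the siRNA libraries is unknown because only RPKM (reads per kilobase of gene, scaled to the mapped reads) were available. GATA2 was 77.0 to 86.1 RPKM in siControl with vehicle and 46.6 to 54.3 RPKM in siGATA2 with vehicle, so transcript remained after knockdown. Under MDV it was 128 to 132 RPKM in siControl and 60.1 to 64.7 RPKM in siGATA2. KLK3, an androgen-induced gene, was 254 to 259 CPM (counts scaled to library size, as edgeR gives them) in vehicle and 2100 to 2140 CPM after 24 h of DHT. All 7 luminal markers counted exceeded 1 CPM in every ligand library, and 6 of the 7 exceeded 1 RPKM in every siRNA library. Their sum, which includes KLK3, was 1440 to 1510 RPKM in siControl with vehicle and 893 to 945 RPKM in siControl with MDV. In siGATA2 it was 855 to 873 RPKM with vehicle and 829 to 844 RPKM with MDV. The markers did not move together. From siControl to siGATA2, both with vehicle, mean KLK3 went from 791 to 24.1 RPKM and KLK2 from 33.6 to 0.599 RPKM. Mean KRT8 rose from 109 to 195 RPKM, KRT18 from 116 to 171 RPKM and FOLH1 from 147 to 199 RPKM. FOXA1 was 139 and 142 RPKM and HOXB13 143 and 135 RPKM. The basal markers KRT5 and TP63, the blood marker PTPRC and the endothelial marker PECAM1 stayed at or near 0. The sum of the 8 markers of other cells was 36 to 38.3 CPM in vehicle and 24.1 to 27.6 CPM after 24 h of DHT, carried by VIM, COL1A1 and ACTA2, and its part in the results was not tested.

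The promoter windows of PER1 and NR1D2 are shown because these were the members that responded most to DHT and because theirs were the only member windows with the E-box letters CACGTG. RefSeq promoter windows on GRCh38.p14, 250 bases before to 50 after an annotated start, matched all 10 members (15 windows; ARNTL under BMAL1). PER1 lies at chr17:8140472-8156506 on the minus strand and NR1D2 at chr3:23945260-23980618 on the plus strand (GENCODE v29, GRCh38). Both stretches lie upstream of an annotated start, within the gene body and outside the annotated exons of the gene. The first is chr17:8152540-8152584 on the minus strand and the second is chr3:23945921-23946024 on the plus strand, upstream of the second annotated start of NR1D2. Capitals mark E-boxes (CACGTG), a D-box (TTATGTAA, here on the opposite strand) and a nuclear receptor half-site (AGGTCA, likewise on the opposite strand).
PER1: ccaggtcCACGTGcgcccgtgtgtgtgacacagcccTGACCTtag
NR1D2: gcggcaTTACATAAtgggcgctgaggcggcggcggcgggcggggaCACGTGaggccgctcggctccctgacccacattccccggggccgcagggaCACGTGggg

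The PER1 E-box began 173 bases before the start, and the NR1D2 E-boxes began 155 and 105 bases before it. Among 35116 promoter windows of the same length, 7.26% held CACGTG on either strand, 0.886% held TTATGTAA and 13.8% held AGGTCA. TTATGTAA was also in the first PER3 window, 177 bases before its start, and AGGTCA in windows of CRY2 and ARNTL. The cAMP response element TGACGTCA (1.85% of windows), the receptor half-site AGAACA (14.8%), the GATA letters AGATAA (10.3%) and the full androgen or glucocorticoid receptor element (0.00285%) were in no member window. E-box matches are palindromic and read the same on both strands, and none of these matches was tested for binding.

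Per length of gene, NR1D2 was the most abundant member. In siControl with vehicle it measured 22.5 ± 0.773 RPKM (SD, n = 3), followed by DBP at 8.73 ± 0.570, PER3 at 8.38 ± 0.0901 and CRY1 at 8.11 ± 0.209 RPKM. NR1D1, CLOCK, PER1 and CRY2 lay between 4.63 and 5.28 RPKM on average. PER2 at 2.63 ± 0.0624 and ARNTL at 2.50 ± 0.162 RPKM were lowest. The libraries of NR1D2 did not overlap those of DBP, nor did CRY1 overlap NR1D1 or CRY2 overlap PER2, and every other pair of neighbours in this order overlapped.

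DHT raised PER1, a light- and hormone-responsive member of the PER family, and by 24 h lowered several other members. At 4 h, 2 of 10 members rose, PER1 and NR1D2, and none fell, while 6.77% of the 15555 genes tested were called in either direction, 4.66% up and 2.11% down (edgeR quasi-likelihood test, Benjamini-Hochberg adjusted p below 0.05 over all genes, the rule for every call here). At 24 h, PER1 was still higher and NR1D2, CRY2, DBP and PER3 were lower, 5 of 10 members against 50.0% of all genes (26.9% up and 23.2% down), so the share of members called was that of the background. The median log2 fold change of the members at 24 h was -0.19 and that of all genes 0.00. Both comparisons use the same vehicle libraries, as do those of MDV below, and in these bulk libraries fewer expressing cells and less RNA per cell cannot be told apart.

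**Figure D1:**
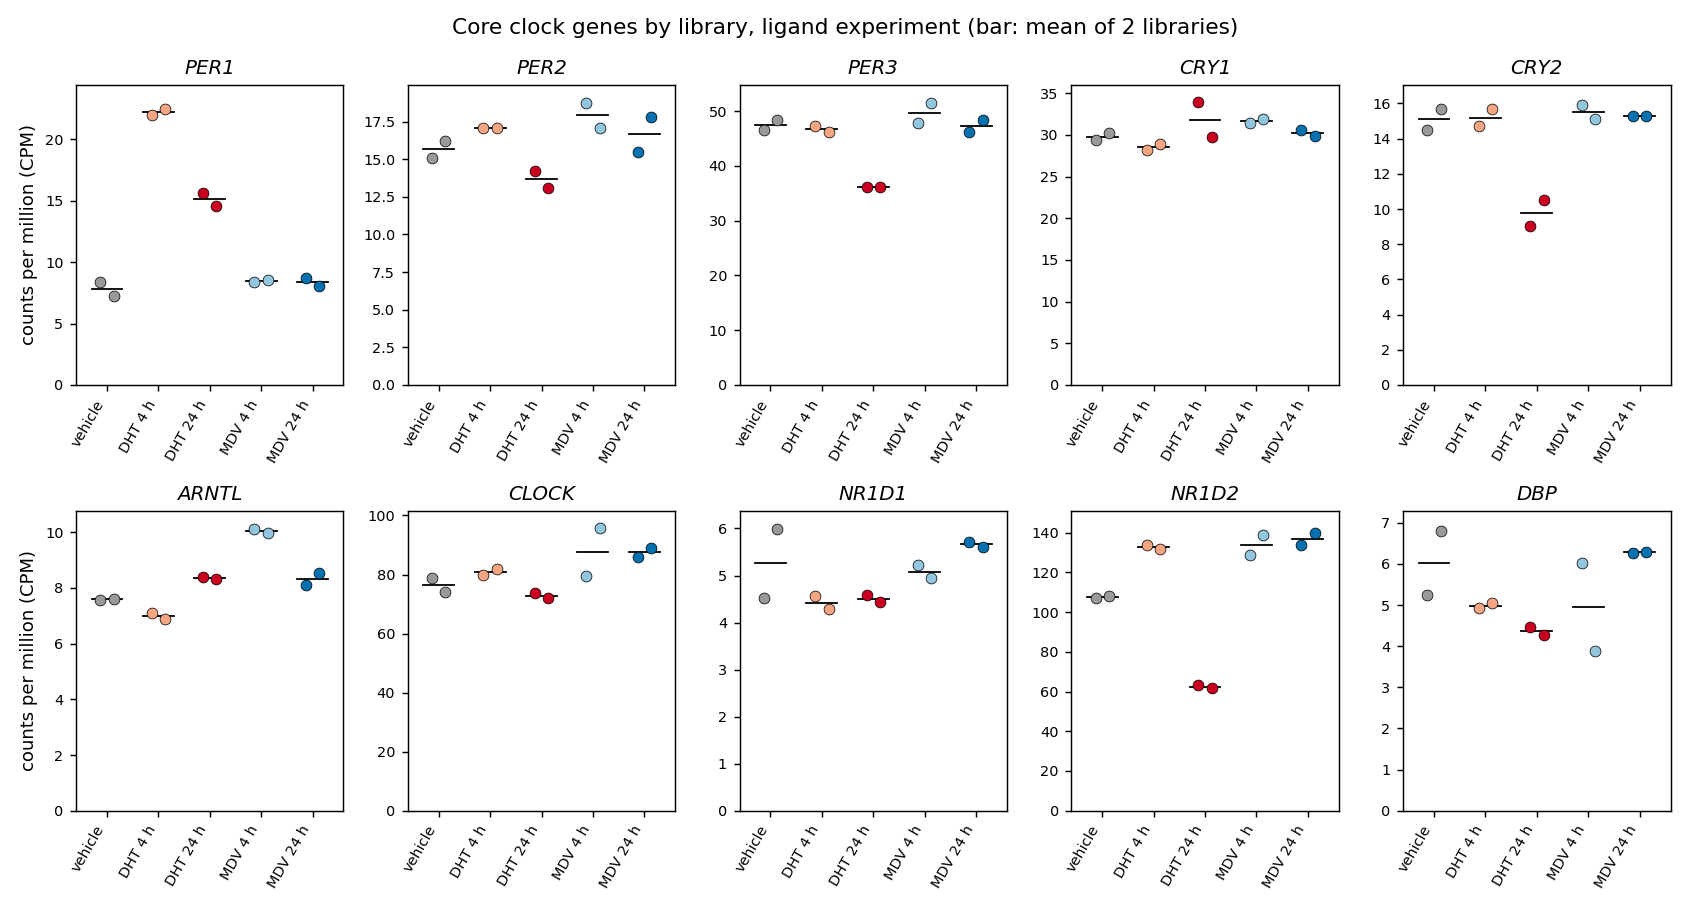
CPM (y axis, from 0, a scale of its own in each panel) of the 10 core clock genes in each ligand library (points) by condition (x axis), with the mean of the 2 libraries as a bar. PER1 stood at 22.0 and 22.5 CPM after 4 h of DHT against 8.42 and 7.24 CPM in vehicle, and NR1D2 fell to 63.4 and 61.6 CPM after 24 h of DHT.

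PER1 was 8.42 and 7.24 CPM in the vehicle libraries, 22.0 and 22.5 CPM after 4 h of DHT and 15.6 and 14.6 CPM after 24 h of DHT. MDV left it at 8.37 and 8.57 CPM at 4 h and at 8.70 and 8.03 CPM at 24 h. Every DHT library thus exceeded every other library, and the 4 h libraries exceeded the 24 h libraries. PER1 was 2.82-fold higher than vehicle at 4 h (log2 1.49 ± 0.0771 SE, edgeR adjusted p = 2.71e-08) and 1.92-fold higher at 24 h (log2 0.94 ± 0.0804, edgeR adjusted p = 6.05e-07). Against MDV at the same time, which uses no vehicle library, DHT-treated cells had 2.62-fold more PER1 at 4 h and 1.81-fold more at 24 h, log2 differences of 1.39 and 0.86 that were 1.57 and 0.84 with the set as a term. Between 4 h and 24 h of DHT it fell by 0.55 on the log2 scale (edgeR adjusted p = 3.04e-05).

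PER2 and PER3, the partners of PER1 in the repressor complex, showed no such rise. PER2 was 15.1 and 16.2 CPM in vehicle, 17.1 and 17.1 CPM after 4 h of DHT and 14.2 and 13.1 CPM after 24 h of DHT. Neither DHT time was called against vehicle, and PER2 fell by 0.32 on the log2 scale from 4 h to 24 h of DHT (edgeR adjusted p = 0.00424). PER3 was 46.6 and 48.4 CPM in vehicle and 47.2 and 46.1 CPM after 4 h of DHT, groups that overlapped. After 24 h of DHT it was 36.1 and 36.2 CPM, below every other library, a log2 fold change of -0.39 ± 0.0505 (edgeR adjusted p = 2.71e-05).

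The cryptochromes, which repress CLOCK and ARNTL together with the PER proteins, differed from each other. CRY1 was 29.4 and 30.2 CPM in vehicle, 28.2 and 28.9 CPM after 4 h of DHT and 34 and 29.7 CPM after 24 h of DHT. It was called only from 4 h to 24 h of DHT, among the 8 ligand comparisons, by a log2 difference of 0.16 that was lost in 9 of 21 alternatives. CRY2 was 14.5 and 15.7 CPM in vehicle, 14.7 and 15.7 CPM after 4 h of DHT, and 9.04 and 10.5 CPM after 24 h of DHT. The 24 h DHT libraries lay below all the others, and CRY2 fell by 0.63 ± 0.0810 on the log2 scale against vehicle (edgeR adjusted p = 2.53e-05).

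Neither gene of the activator limb was called with DHT against vehicle. ARNTL, which dimerises with CLOCK, was 7.58 and 7.59 CPM in vehicle, 7.11 and 6.88 CPM after 4 h of DHT and 8.38 and 8.31 CPM after 24 h of DHT. The 95% interval of its log2 fold change was -0.28 to 0.05 at 4 h and -0.03 to 0.30 at 24 h. CLOCK was 78.7 and 74.1 CPM in vehicle, 79.8 and 81.8 CPM after 4 h of DHT and 73.7 and 71.9 CPM after 24 h of DHT, and its 24 h libraries lay just below vehicle (95% interval of log2 -0.22 to 0.08).

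NR1D2, the REV-ERBβ repressor, changed direction with the time in DHT. It was 107 and 108 CPM in vehicle, 134 and 132 CPM after 4 h of DHT and 63.4 and 61.6 CPM after 24 h of DHT, 3 levels without overlap. Relative to vehicle it was 0.31 ± 0.0421 higher on the log2 scale at 4 h (edgeR adjusted p = 0.000334) and changed by -0.78 ± 0.0439 at 24 h (edgeR adjusted p = 1.28e-08). The difference between the 2 times was itself -1.09 ± 0.0436 (edgeR adjusted p = 1.02e-09), the largest of any member between 4 h and 24 h of DHT. Within the sets of libraries that share a column-name prefix, the log2 ratio to the vehicle column of the set was 0.32 at 4 h and -0.80 and -0.78 at 24 h.

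NR1D1, the REV-ERBα repressor, was among the lowest members in CPM. It was 4.53 and 5.99 CPM in vehicle, 4.56 and 4.29 CPM after 4 h of DHT and 4.59 and 4.43 CPM after 24 h of DHT, and the DHT libraries overlapped vehicle at both times. DBP, an output factor, was 5.25 and 6.80 CPM in vehicle, 4.92 and 5.04 CPM after 4 h of DHT and 4.46 and 4.26 CPM after 24 h of DHT. Its log2 fold change of -0.45 ± 0.172 at 24 h was called at an edgeR adjusted p of 0.0453, and the call was lost in 9 of 21 alternatives, with adjusted p up to 0.289 when vehicle replicate 2 was left out.

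MDV at 10 μM changed few members. At 4 h, ARNTL and NR1D2 rose and none fell, 2 of 10 members against 13.6% of all genes (6.94% up and 6.68% down), and at 24 h NR1D2 and CLOCK rose and none fell, 2 of 10 members against 33.4% of all genes (16.4% up and 17.0% down). The members' median log2 fold change was 0.10 at 4 h and 0.09 at 24 h, and that of all genes 0.00 and 0.01. PER1 was not called at either time (95% interval of log2 -0.08 to 0.29 at 4 h and -0.10 to 0.27 at 24 h).

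**Figure D2:**
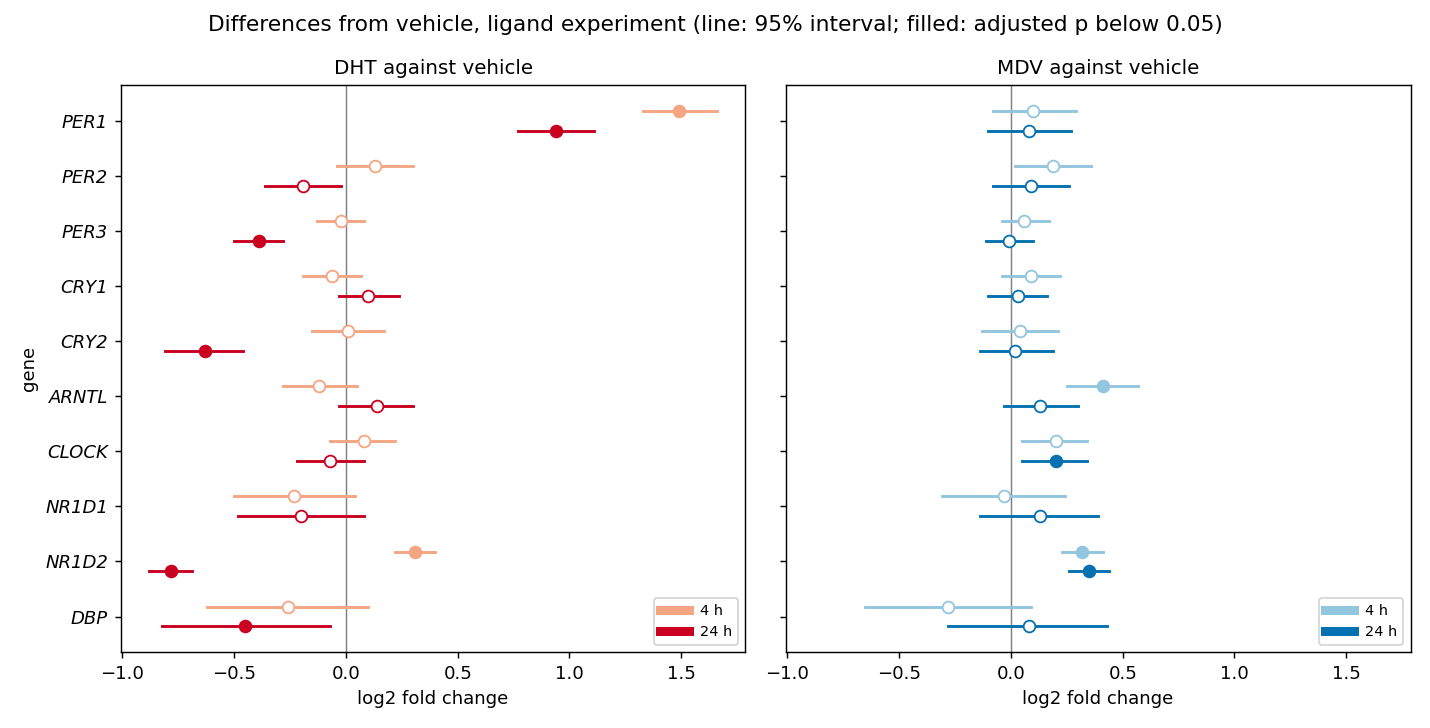
Log2 fold change against vehicle (x axis) of the 10 core clock genes (y axis) for DHT (left) and MDV (right) at 4 h (light) and 24 h (dark), with 95% intervals as lines and filled points where the edgeR adjusted p was below 0.05. PER1 lay at 1.49 and 0.94 with DHT and at 0.10 and 0.08 with MDV, and NR1D2 lay at 0.31 and -0.78 with DHT and at 0.32 and 0.35 with MDV, all against the same vehicle libraries.

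NR1D2 was 129 and 139 CPM after 4 h of MDV and 134 and 140 CPM after 24 h, all above the vehicle libraries at 107 and 108 CPM. The log2 fold changes were 0.32 ± 0.0423 and 0.35 ± 0.0422 (edgeR adjusted p = 0.000351 and 3.29e-05). ARNTL was 10.1 and 9.97 CPM after 4 h of MDV, above all other ligand libraries, and 8.12 and 8.53 CPM after 24 h of MDV. It was 0.41 ± 0.0740 higher than vehicle on the log2 scale at 4 h (edgeR adjusted p = 0.00353) and fell by 0.27 from 4 h to 24 h of MDV (edgeR adjusted p = 0.0159). The vehicle columns of one replicate number, in 3 sets and summed here, spread from 6.30 to 9.02 CPM for ARNTL. That span is no smaller than the difference between the means of vehicle and 4 h MDV, 7.59 and 10.1 CPM. The column at 6.30 CPM was in the second set, which held both 4 h MDV libraries. With the set as a term, the 4 h difference from vehicle was 0.49 (edgeR adjusted p = 0.0336). In that fit the difference from 4 h to 24 h of MDV was larger, at -0.46, and was not called (edgeR adjusted p = 0.0644).

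CLOCK was 79.5 and 95.6 CPM after 4 h of MDV and 86.1 and 89.0 CPM after 24 h, each above the vehicle libraries at 78.7 and 74.1 CPM. The rise at 24 h (log2 0.20 ± 0.0669, edgeR adjusted p = 0.0393) was lost in 11 of 21 alternatives, in 8 of them when 1 library was left out. PER2 after MDV was 18.7 and 17.1 CPM at 4 h and 15.5 and 17.8 CPM at 24 h, PER3 was 46.1 to 51.4 CPM, CRY1 29.9 to 31.9 CPM and CRY2 15.1 to 15.9 CPM over the 4 MDV libraries, none of them called against vehicle. NR1D1 was 4.94 to 5.72 CPM over these libraries. DBP was 6.02 and 3.89 CPM after 4 h of MDV and 6.27 and 6.29 CPM after 24 h.

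Most members were called in the direct comparison of the ligands at 24 h, as were most of all genes tested. DHT-treated cells had more PER1 and less NR1D2, CRY2, DBP, PER3, NR1D1, PER2 and CLOCK than MDV-treated cells, 8 of 10 members against 64.9% of all genes (31.3% up and 33.6% down). NR1D2 differed most, by -1.13 ± 0.0436 on the log2 scale (edgeR adjusted p = 8.13e-11), with 63.4 and 61.6 CPM under DHT and 134 and 140 CPM under MDV. The calls of NR1D1, DBP and PER2 at 24 h were lost in 8, 4 and 2 of 21 alternatives. CRY1 and ARNTL were not called, with log2 differences of 0.08 (95% interval -0.05 to 0.21) and 0.00 (-0.16 to 0.16). At 4 h only PER1, higher with DHT, and ARNTL, lower with DHT by 0.52 ± 0.0739 on the log2 scale (edgeR adjusted p = 0.000265), were called, 2 of 10 members against 15.8% of all genes (8.49% up and 7.28% down). With the set as a term the ARNTL difference was larger, at -0.59, and just missed the threshold (edgeR adjusted p = 0.0501). NR1D2 did not differ detectably between the ligands at 4 h (log2 -0.01, 95% interval -0.10 to 0.08).

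From 4 h to 24 h, DHT-treated cells moved in 7 of 10 members against 49.8% of all genes (26.3% up and 23.5% down). NR1D2, CRY2, PER1, PER3 and PER2 fell, and ARNTL and CRY1 rose. The calls of CRY1, ARNTL and PER2 were lost in 9, 5 and 1 of 21 alternatives. MDV-treated cells moved in 1 member, ARNTL, which fell, against 24.6% of all genes (11.7% up and 12.9% down). This call was lost in 4 of 21 alternatives.

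In siControl cells, 25 μM MDV for 24 h raised most of the clock. NR1D1, PER1, DBP, NR1D2, PER2, CRY2, PER3 and ARNTL rose and CRY1 fell, 9 of 10 members against 42.1% of the 20369 genes tested (limma on log2 of RPKM plus 0.1, the same adjusted threshold). In the upward direction 8 of 10 members were called against 17.7% of all genes, and in the downward direction 1 of 10 against 24.4%. The members' median log2 fold change was 0.49 and that of all genes -0.02. The addition of 0.1 RPKM understates changes of low genes, and the lowest member value was 1.52 RPKM.

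In siGATA2 cells none of the 10 members was called with the same treatment, against 0.412% of all genes, 0.221% up and 0.191% down (limma). No member reached an unadjusted p below 0.05 there either, and the largest absolute log2 difference was 0.12, of PER1 (95% interval -0.14 to 0.37). The difference between these MDV effects, the interaction term of the same fit, was called for 7 of 10 members against 25.8% of all genes (15.0% up and 10.8% down). NR1D1, DBP, PER1, PER2, NR1D2, CRY2 and PER3 responded less to MDV in siGATA2 cells. Beside these results, KLK3 was 765 to 816 RPKM in siControl with vehicle and 21.7 to 26.3 RPKM in siGATA2 with vehicle. The sum of the 8 markers of other cells was 37.7 to 40.0 RPKM in siControl with vehicle, 38.8 to 41.2 RPKM in siControl with MDV, 26.7 to 34.1 RPKM in siGATA2 with vehicle and 26.3 to 29.8 RPKM in siGATA2 with MDV, and its part in the results was not tested.

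**Figure D3:**
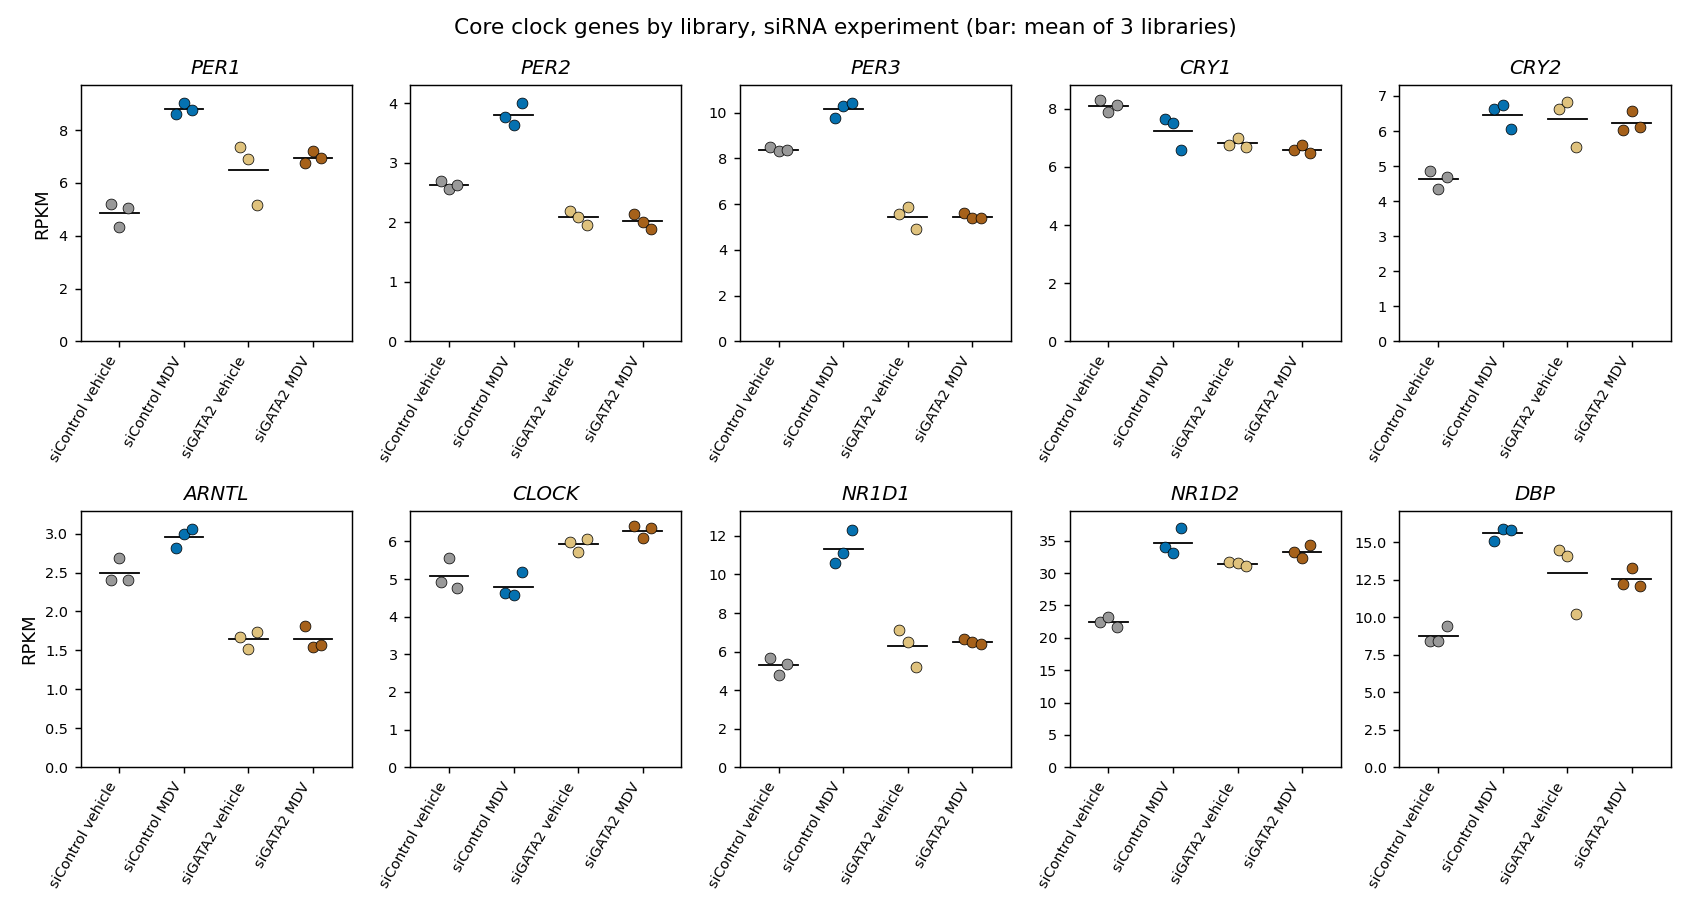
RPKM (y axis, from 0, a scale of its own in each panel) of the 10 core clock genes in each siRNA library (points) by condition (x axis), with the mean of the 3 libraries as a bar. NR1D1 stood at 10.6 to 12.3 RPKM in siControl with MDV against 4.79 to 5.68 RPKM in siControl with vehicle, and at 6.4 to 6.63 RPKM in siGATA2 with MDV.

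PER1 was 5.21, 4.32 and 5.05 RPKM in siControl with vehicle and 8.59, 9.01 and 8.76 RPKM in siControl with MDV. In siGATA2 it was 7.36, 6.90 and 5.15 RPKM with vehicle and 6.74, 7.19 and 6.95 RPKM with MDV. The siControl groups did not overlap and the siGATA2 groups did. The MDV effect in siControl was 0.85 ± 0.114 on the log2 scale (limma adjusted p = 0.000175), and the interaction was -0.73 ± 0.162 (limma adjusted p = 0.00813). In the ligand experiment, at 10 μM and without transfection, the 24 h value of PER1 was 0.08, and the conditions differ in dose, transfection and sequencing.

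PER2 was 2.70, 2.57 and 2.63 RPKM in siControl with vehicle and 3.78, 3.64 and 4.00 RPKM with MDV, and 2.20, 2.09 and 1.96 RPKM in siGATA2 with vehicle and 2.15, 2.01 and 1.89 RPKM with MDV. All siGATA2 libraries were below all siControl libraries. The MDV effect in siControl was 0.52 ± 0.0609 (limma adjusted p = 7.22e-05). PER3 behaved alike in order: 8.48, 8.31 and 8.36 RPKM rose to 9.77, 10.3 and 10.4 RPKM in siControl, and siGATA2 held 5.58, 5.86 and 4.91 RPKM with vehicle and 5.61, 5.38 and 5.38 RPKM with MDV. Its interaction of -0.27 ± 0.0780 (limma adjusted p = 0.0297) was lost in 8 of 19 alternatives, each of which left out 1 library.

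CRY2 was 4.87, 4.34 and 4.69 RPKM in siControl with vehicle and 6.63, 6.73 and 6.05 RPKM with MDV. In siGATA2 it was 6.63, 6.84 and 5.53 RPKM with vehicle and 6.04, 6.57 and 6.10 RPKM with MDV, and under MDV it differed from siControl by -0.05 on the log2 scale (95% interval -0.23 to 0.12). CRY1 was 8.31, 7.90 and 8.12 RPKM in siControl with vehicle and 7.65, 7.51 and 6.6 RPKM with MDV, a fall of 0.16 ± 0.0503 (limma adjusted p = 0.0246) that was lost in 4 of 20 alternatives. In siGATA2 CRY1 was 6.77, 6.98 and 6.69 RPKM with vehicle and 6.57, 6.75 and 6.48 RPKM with MDV.

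ARNTL was 2.41, 2.69 and 2.40 RPKM in siControl with vehicle and 2.81, 3.00 and 3.06 RPKM with MDV. The siGATA2 libraries were lower than all of these, at 1.67, 1.52 and 1.73 RPKM with vehicle and 1.81, 1.55 and 1.57 RPKM with MDV. The MDV effect in siControl was 0.23 ± 0.0767 (limma adjusted p = 0.0323), lost in 5 of 20 alternatives, and its interaction was not called. CLOCK, its partner, went the other way with the knockdown. It was 4.93, 5.55 and 4.75 RPKM in siControl with vehicle, 4.62, 4.58 and 5.19 RPKM in siControl with MDV, 5.98, 5.72 and 6.07 RPKM in siGATA2 with vehicle and 6.4, 6.08 and 6.35 RPKM in siGATA2 with MDV.

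NR1D1 gave the largest MDV effect of the 10. It was 5.68, 4.79 and 5.38 RPKM in siControl with vehicle and 10.6, 11.1 and 12.3 RPKM with MDV, a 2.12-fold rise (log2 1.09 ± 0.104, limma adjusted p = 1.63e-05). In siGATA2 it was 7.11, 6.48 and 5.22 RPKM with vehicle and 6.63, 6.52 and 6.4 RPKM with MDV, groups that overlapped. The interaction was -1.02 ± 0.147 (limma adjusted p = 0.000705).

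NR1D2 was 22.5, 23.2 and 21.7 RPKM in siControl with vehicle and 34.1, 33.1 and 37.0 RPKM with MDV, an effect of 0.63 ± 0.0410 (limma adjusted p = 1.19e-06). In siGATA2 it was 31.7, 31.6 and 31.1 RPKM with vehicle and 33.2, 32.4 and 34.3 RPKM with MDV. Its siGATA2 groups did not overlap, but the difference of 0.08 ± 0.0410 was not called (95% interval -0.01 to 0.17). DBP was 8.40, 8.41 and 9.39 RPKM in siControl with vehicle and 15.1, 15.9 and 15.8 RPKM with MDV, and 14.5, 14.1 and 10.2 RPKM in siGATA2 with vehicle and 12.2, 13.3 and 12.1 RPKM with MDV. Its MDV effect was 0.83 ± 0.113 in siControl (limma adjusted p = 0.000182) and -0.03 ± 0.113 in siGATA2.

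**Figure D4:**
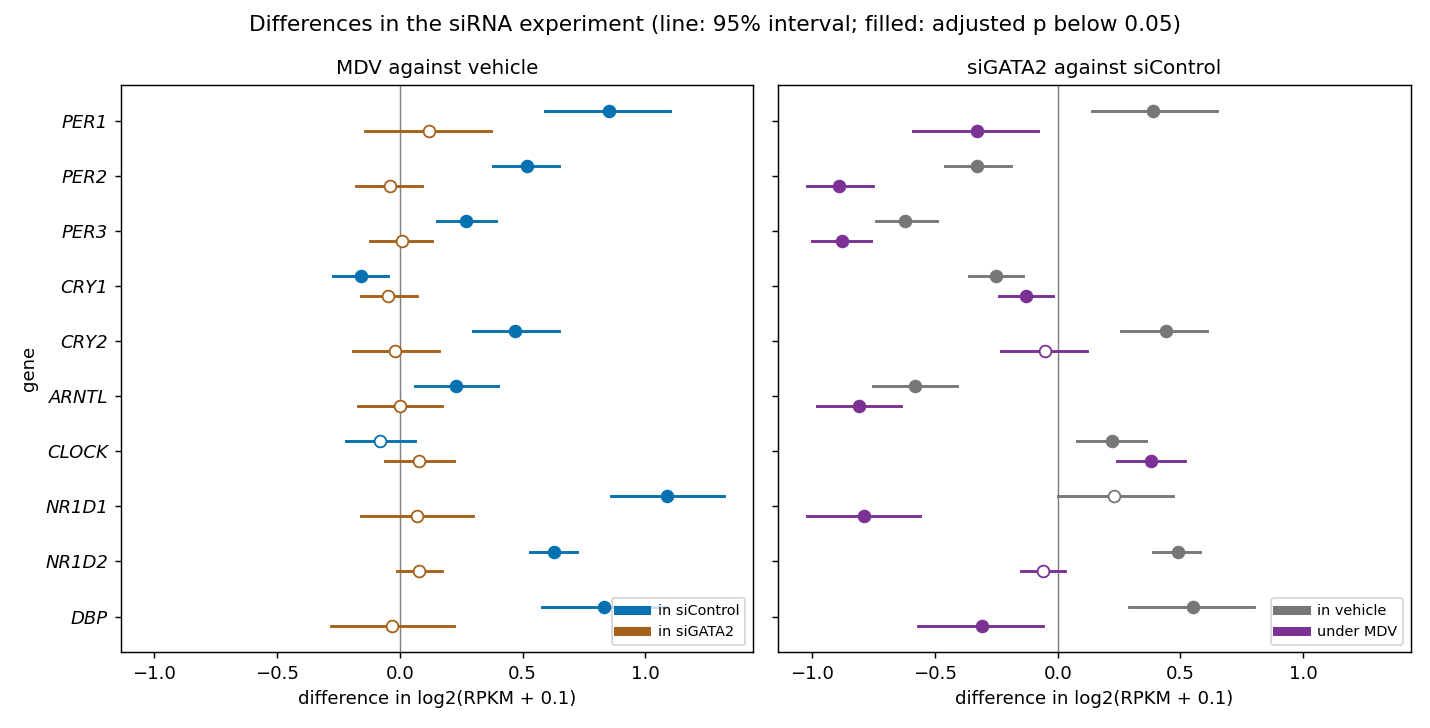
Difference in log2(RPKM + 0.1) (x axis) of the 10 core clock genes (y axis), with 95% intervals as lines and filled points where the limma adjusted p was below 0.05, for MDV against vehicle (left, in siControl and in siGATA2) and siGATA2 against siControl (right, in vehicle and under MDV). No point is filled for MDV in siGATA2, where 0.412% of all genes were called. PER2, PER3, ARNTL and CRY1 lay below 0 in both comparisons of siGATA2 against siControl.

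GATA2 knockdown in vehicle split the members. DBP, NR1D2, CRY2, PER1 and CLOCK rose and PER3, ARNTL, PER2 and CRY1 fell, 9 of 10 members against 55.6% of all genes (24.2% up and 31.4% down). The largest differences were -0.62 ± 0.0552 for PER3 and -0.58 ± 0.0767 for ARNTL (limma adjusted p = 3.76e-06 and 7.47e-05), and the call of PER1 was lost in 3 of 20 alternatives. Under MDV, CLOCK rose and PER2, PER3, ARNTL, NR1D1, PER1, DBP and CRY1 fell, 8 of 10 members against 54.5% of all genes (26.3% up and 28.1% down). PER2 fell by 0.89 ± 0.0609, PER3 by 0.88 ± 0.0552 and ARNTL by 0.81 ± 0.0767 on the log2 scale. The calls of CRY1, DBP and PER1 under MDV were lost in 16, 6 and 5 of 20 alternatives. These comparisons share libraries with the MDV comparisons above.

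By the study's own rule of more than 2-fold at an unadjusted p below 0.05, few members passed. For DHT, PER1 passed at 4 h (1.20% of all genes passed) and none at 24 h (5.86%). For MDV, none passed at 4 h (0.752%) or at 24 h (2.89%), nor between these times (2.30%). PER1 passed for DHT against MDV at 4 h (1.83%), and NR1D2 passed both for DHT against MDV at 24 h (11.8%) and for DHT at 24 h against 4 h (4.54%). NR1D1 passed for MDV in siControl (2.13%) and for the interaction (1.81%). None passed for MDV in siGATA2 (0.191%) or for siGATA2 against siControl in vehicle (5.64%) and under MDV (5.78%).

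The third siGATA2 library with vehicle stood apart for several members. It was the lowest of its group for 8 of 10 members, and its deviations from the group mean over genes had an SD of 0.0986 on the log2 scale against 0.0647 to 0.0830 in the other siRNA libraries. Without it, PER1 and DBP were higher in siGATA2 than in siControl by 0.55 and 0.71 instead of 0.39 and 0.55, and NR1D1 was also called (0.36, limma adjusted p = 0.00379). Without it, MDV in siGATA2 again gave no call among the members, with log2 differences from -0.19 to 0.10, and the interaction kept its 7 calls, from -1.14 for NR1D1 to -0.34 for PER3.

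Some reads of 7 members cannot be assigned with certainty, because they share exonic bases with other genes in GENCODE on GRCh38. PER1 shares 78 bases (1.11% of its exonic bases) with MIR6883 and 30 bases (0.428%) with AC129492.3, both on its own strand. The other 6 share bases with opposite-strand genes, and the strand setting of the counting is not stated. NR1D1 (chr17:40092787-40100725, minus) shares 263 bases (9.49% of its exonic bases) with THRA, DBP (chr19:48630030-48637438, minus) shares 661 bases (10.1%) with SPHK2 and PER3 (chr1:7784320-7845177, plus) shares 868 bases (10.7%) with UTS2 and 482 bases (5.95%) with Z98884.1. PER2, CRY1 and CLOCK share at most 2.73% of their exonic bases with any one such gene. THRA was 15.3 to 16.8 RPKM in siControl with vehicle and 17.0 to 18.3 RPKM with MDV, a log2 difference of 0.12 against 1.09 for NR1D1. SPHK2 differed by 0.04 in that comparison against 0.83 for DBP, and UTS2 was at most 0.0225 RPKM in any siRNA library. The remaining members lie at chr2:238244038-238290102, minus (PER2), chr12:106991364-107093829, minus (CRY1), chr11:45847118-45883248, plus (CRY2), chr11:13276652-13387266, plus (ARNTL) and chr4:55427903-55547138, minus (CLOCK).

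Other clock genes, a list of 18 made from general knowledge, were counted beside the members; 16 were tested in the ligand experiment and 17 in the siRNA experiment. After 24 h of DHT, 3 of 16 rose (BHLHE40, HLF and TIMELESS) and 4 fell (CIART, CSNK1D, RORA and TEF), against 26.9% of all genes up and 23.2% down. After 4 h 3 rose (FBXW11, NAMPT and NFIL3) and none fell, against 4.66% up and 2.11% down. MDV raised BHLHE40, NFIL3 and RORA and lowered none after 4 h, against 6.94% up and 6.68% down. After 24 h of MDV these genes and NAMPT were higher and TIMELESS was lower, against 16.4% up and 17.0% down. In the direct comparison at 24 h, 2 were higher (HLF and TIMELESS) and 8 lower with DHT than with MDV, against 31.3% and 33.6% of all genes.

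RORA, a nuclear receptor that activates ARNTL, was 1.39 and 1.5 CPM in vehicle, 0.586 and 0.787 CPM after 24 h of DHT and 3.02 and 3.51 CPM after 24 h of MDV. Its log2 fold change was -1.03 ± 0.255 with DHT and 1.18 ± 0.201 with MDV, and the ligands differed by -2.22 ± 0.229 (edgeR adjusted p = 1.75e-06). TIMELESS, a replication fork protein also linked to the clock, was 126 and 129 CPM in vehicle, 187 and 191 CPM after 24 h of DHT and 74.2 and 78.2 CPM after 24 h of MDV. TEF, a PAR bZIP factor related to DBP, fell by 0.68 ± 0.0593 on the log2 scale after 24 h of DHT (edgeR adjusted p = 6.83e-07), whereas HLF of the same family rose by 0.54 ± 0.0831. CIART, a repressor of the CLOCK and ARNTL heterodimer, fell by 0.58 with DHT at 24 h, and NFIL3, a repressor at D-boxes, rose by 0.51 after 4 h of DHT. BHLHE41, a repressor at E-boxes, was 0.97 lower on the log2 scale with DHT than with MDV at 24 h. Its level was low, at 0.306 and 0.421 CPM with DHT and 0.605 and 0.848 CPM with MDV.

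In siControl with MDV, 7 of 17 other clock genes rose and 3 fell, against 17.7% of all genes up and 24.4% down. RORA rose by 0.56 ± 0.112 and CIART by 0.55 ± 0.0656 on the log2 scale, and TIMELESS fell by 0.83 ± 0.0318 (limma adjusted p = 0.00229, 7.37e-05 and 3.19e-08). RORA was low, at 0.193 to 0.237 RPKM in siControl with vehicle and 0.323 to 0.421 RPKM with MDV. The added 0.1 RPKM therefore understates its change. None of the 17 was called with MDV in siGATA2, where only 0.412% of all genes were called (limma). The interaction was called for CIART, NFIL3, RORA and TEF, which were lower, and for ARNTL2 and TIMELESS, which were higher, against 10.8% of all genes lower and 15.0% higher. TIMELESS was 24.8 to 26 RPKM in siControl with vehicle, 14.0 to 14.6 RPKM in siControl with MDV and 14.3 to 15.7 RPKM over the 6 siGATA2 libraries.

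With knockdown in vehicle, 4 of 17 rose and 8 fell, against 24.2% of all genes up and 31.4% down. NPAS2, a CLOCK paralog, fell by 0.93 ± 0.0757, HLF by 1.00 ± 0.0748, TEF by 0.78 ± 0.0588 and ARNTL2 by 0.65 ± 0.0400 on the log2 scale, while FBXW11, a subunit of a ubiquitin ligase that acts on PER proteins, rose by 0.76 ± 0.0390. Under MDV 3 rose and 11 fell, against 26.3% up and 28.1% down, among them TEF by 1.14 ± 0.0588, BHLHE40, an E-box repressor, by 0.86 ± 0.213 and NAMPT, an enzyme of NAD synthesis, by 0.51 ± 0.0468, and USP2, a deubiquitinase, rose by 0.53 ± 0.0638.

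**Figure D5:**
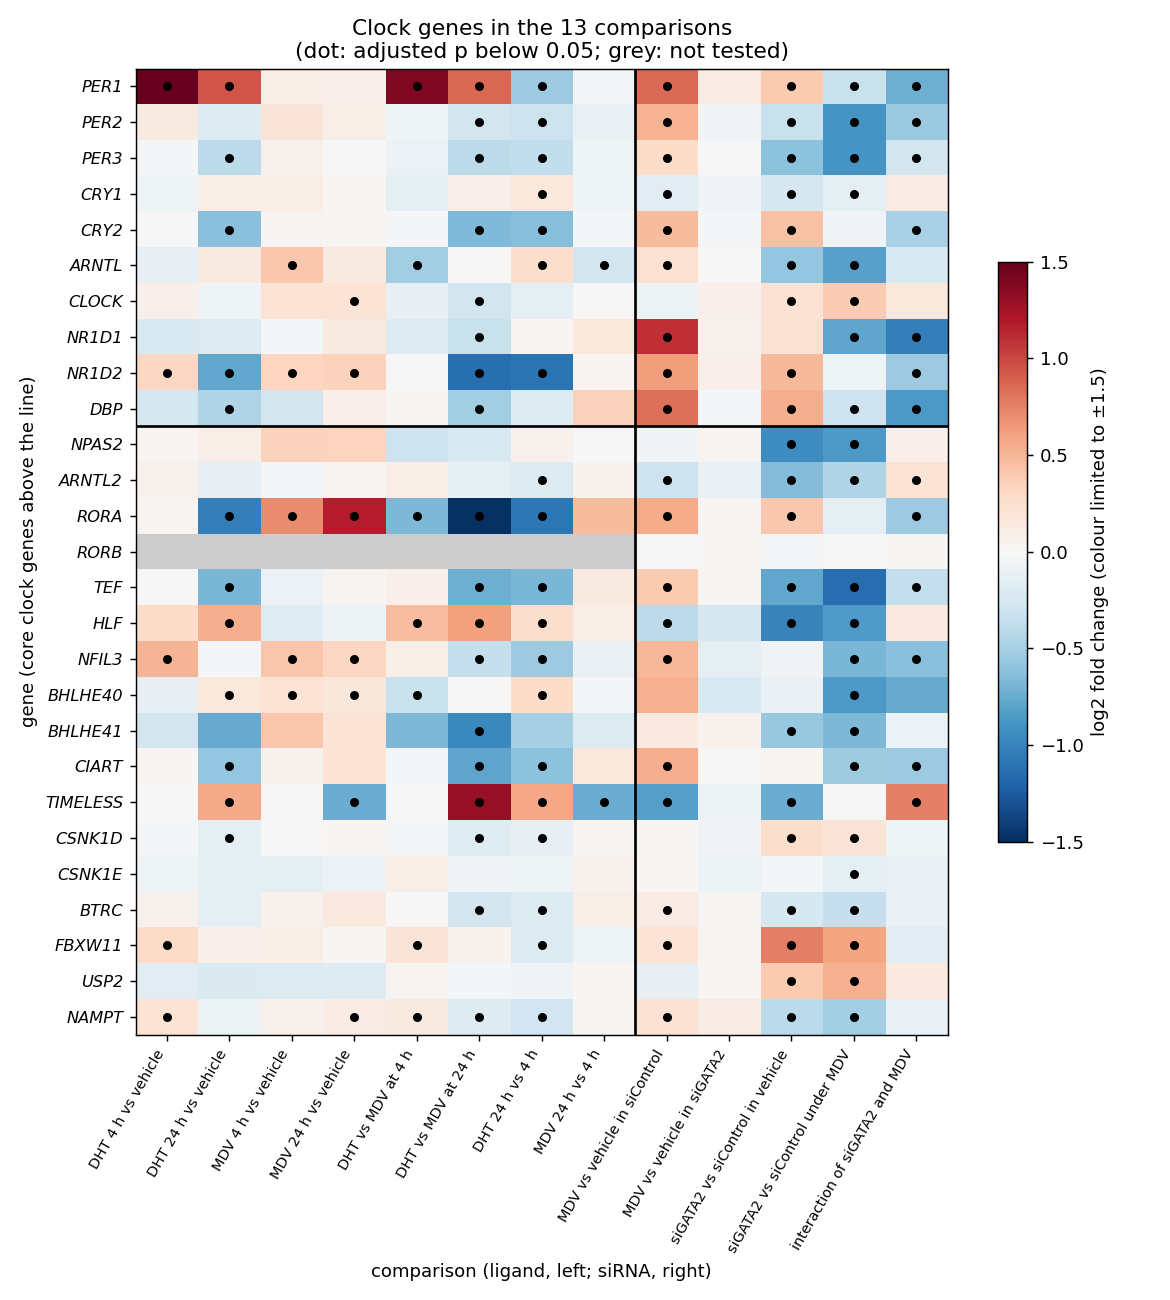
Log2 fold change (colour, limited to ±1.5) of the 10 core clock genes and 17 other clock genes (rows) in the 13 comparisons (columns), with a dot where the adjusted p was below 0.05 and grey where a gene was not tested. Dots cover 9 of the 10 core genes for MDV in siControl, against 42.1% of all genes called. No gene shown has a dot for MDV in siGATA2, where 0.412% of all genes were called.

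The genes whose levels were most like those of a member were ranked by the lower of Pearson r over the 10 ligand libraries and r over the 12 siRNA libraries, among 11383 genes. For PER1 they were NFKBIA (r = 0.952 and 0.916), TBC1D8 (0.863 and 0.860) and NR4A1 (0.853 and 0.853). For ARNTL they were ANKRD11 (0.926 and 0.952), SLC39A14 (0.911 and 0.977) and ZCCHC7 (0.905 and 0.947), and for NR1D1 they were PGLS (0.870 and 0.917), ZNF865 (0.883 and 0.869) and C9orf16 (0.866 and 0.861). The points of each r share the conditions and the scaling of the libraries, and they describe likeness over these libraries alone.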

How the data were processed

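LNCaP RNA-seq libraries of a ligand experiment and of a siRNA experiment were analysed. The authors aligned poly(A) RNA reads with TopHat 2.0.13 and quantified genes at the default settings of Partek Genomics Suite v6.6, and hg19 is named in the submitters' processing notes. For the ligand experiment the authors deposited estimated counts per gene, which were rounded. For the siRNA experiment the deposited values are RPKM, computed by the authors, although the tables are named as read counts. The sample titles number 4 vehicle replicates, whereas the headers of the 4 vehicle columns give replicate number 1 to 3 of them. These 3 columns differed from each other by a mean chi-square per gene of 1.53 to 1.56, against 3.56 to 3.74 from replicate 2. The replicate pairs of the treated conditions differed by 2.03 to 9.83. The 3 columns were summed into 1 library, giving 2 vehicle libraries. Titles and headers thus differ on whether these 3 were separate replicates. The count of columns of samples not used is 0.

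Counts were filtered with filterByExpr, scaled by TMM and fitted over all 10 libraries with the quasi-likelihood test of edgeR 4.0.16 (15555 genes). RPKM were fitted over all 12 libraries with limma 3.58.1 with a variance trend on log2(RPKM + 0.1), for genes above 0 in at least 3 libraries (20369 genes). P-values were Benjamini-Hochberg adjusted over all genes tested, at a threshold of 0.05. CPM were scaled with TMM factors. Depth limits the precision of the counts, and no depth is known for RPKM, where only relative depth could be estimated from the value steps (0.835 to 1.09 of the first library). Alternatives used DESeq2 1.42.0, other scalings, filters, pseudocounts, pairing by replicate number and libraries left out in turn, and a fit with the set of libraries as a term was added after seeing the data. The scripts were tested on simulated data. Figures were drawn with matplotlib.

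The members and lists were chosen with earlier results of these data known. The text names the 10 members, other clock genes called with an absolute log2 fold change above 0.5 in any comparison, genes that check the labels, and 3 genes most like each of PER1, ARNTL and NR1D1; CSNK1D is also named, as part of a count of 5 or fewer. VIM, COL1A1, ACTA2, KRT5, TP63, PTPRC, PECAM1, KLK2, KRT8, KRT18, FOLH1, FOXA1 and HOXB13 belong to the marker lists. Replicate numbers are said to mark biological replicates, and no source says what a shared number means. Deviations of same-numbered libraries correlated at 0.113, 0.241 and 0.148 between siControl and siGATA2 under MDV, which by the rule of every r above 0.1 counts as paired, and at -0.342 to 0.280 between the other siRNA conditions. In the ligand experiment the rule was also met between vehicle and 24 h DHT (0.194), between the DHT times (0.138) and between the MDV times (0.132). The other ligand conditions gave -0.161 to 0.006. With 2 libraries per condition, both replicate numbers give the same r. One listed clock gene, FBXL21, was not analysed here, and some listed genes are not reported here and are left out of the lists and their counts. Exon positions came from GENCODE v29 on GRCh38, and no hg19 coordinates were used.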

Additional observations from a re-analysis of the deposited data

Results flagged for a closer look

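The MDV effect differed between siGATA2 and siControl cells by the interaction test of limma for 7 core clock genes, with log2 differences of -1.02 for NR1D1, -0.86 for DBP, -0.73 for PER1, -0.56 for PER2, -0.55 for NR1D2, -0.49 for CRY2 and -0.27 for PER3. All 7 were lower, beside 10.8% of all genes called in that direction, and MDV raised each of these genes in siControl. Levels under DHT differed between 24 h and 4 h by the edgeR test of the times for 7 core clock genes, with log2 differences of -1.09 for NR1D2, -0.64 for CRY2, -0.55 for PER1, -0.37 for PER3, -0.32 for PER2, 0.26 for ARNTL and 0.16 for CRY1. Of all genes, 49.8% were called between the DHT times, 26.3% up and 23.5% down. The level of ARNTL under MDV differed between 24 h and 4 h, by -0.27, beside 24.6% of all genes called. The times also differed in their sets of libraries. With the set as a term, PER2, CRY1 and ARNTL were not called under DHT, and ARNTL was not called under MDV. CLOCK was then called under DHT (log2 -0.26, edgeR adjusted p = 0.049). No harvest time is given for vehicle, so the effect of elapsed hours cannot be told apart from that of the ligand. No condition held 4 or more libraries, so no single library could be tested as an outlier.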

How the results depend on the processing

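Over the 10 members and 13 comparisons, 62 gene and comparison pairs were called and 68 were not. Of these, 45 were called under every alternative with the adjusted threshold, and none reversed. Of the 68 pairs not called, 10 were called by some alternative. With the study's rule of more than 2-fold at an unadjusted p below 0.05, 1 member passed for DHT at 4 h, DHT against MDV at 4 h and at 24 h, DHT at 24 h against 4 h, MDV in siControl and the interaction, and 0 passed for DHT at 24 h, MDV at 4 h and at 24 h, MDV at 24 h against 4 h, and siGATA2 against siControl in vehicle and under MDV. For MDV at 24 h, 1 member was called with RLE scaling, with the set as a term and with vehicle replicate 1 from the second set only. With the set as a term, 1 was called for DHT against MDV at 4 h. For MDV at 24 h against 4 h, 0 were called with DESeq2 or with the set as a term and 2 without a filter on low counts. Leaving out 1 library at a time gave 5 to 8 members for DHT against MDV at 24 h (5 without MDV 24 h replicate 2), 0 to 1 for MDV at 24 h against 4 h (0 without MDV 24 h replicate 1), 1 to 2 for MDV at 24 h, 2 to 4 for MDV at 4 h (4 without MDV 4 h replicate 1) and 5 to 7 for siGATA2 against siControl under MDV. The cause of these moves was not tested.

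With the replicate number as a block, the calls of DBP for DHT at 24 h (edgeR adjusted p = 0.0549), CRY1 for DHT at 24 h against 4 h (edgeR adjusted p = 0.0524) and ARNTL for MDV in siControl (limma adjusted p = 0.0605) were lost, and no other call of a member changed. These numbers are a hint only, since no source states a shared day or culture.

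Scaling moved the split of calls over all genes. The share that was higher went from 53.7% to 42.1% for DHT at 24 h with library size in place of TMM, and, with libraries centred on their medians, from 42.1% to 54.0% for MDV in siControl, from 53.6% to 66.2% for MDV in siGATA2 and from 43.5% to 53.6% for siGATA2 against siControl in vehicle. That of the interaction went from 58.0% to 48.6% with the same centring. No scaling moved the median of all genes by more than 0.1 on the log2 scale. The background counts of calls moved by over 1.5 times in some fits. With the set as a term they were 1224 instead of 2119 for MDV at 4 h, 1060 instead of 2453 for DHT against MDV at 4 h and 1628 instead of 3829 for MDV at 24 h against 4 h. With only the conditions compared they were 781 for MDV at 4 h, 1578 for DHT against MDV at 4 h and 24 instead of 84 for MDV in siGATA2, where the replicate block gave 29. With 1 library left out the lowest were 570 instead of 1053 for DHT at 4 h, 1058 for MDV at 4 h, 3098 instead of 5194 for MDV at 24 h, 1256 for DHT against MDV at 4 h, 2139 for MDV at 24 h against 4 h and 27 for MDV in siGATA2.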
